A study of Rattus norvegicus with 6 samples.

Results

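The genes described here encode actins, the conventional myosin heavy and light chains, and the proteins that bind, regulate or fuel the contractile filaments of muscle. Members were the rows of the deposited count table whose gene name matched a fixed list of such names, from Acta1 and Actb to Ttn, Ckm and Musk, and 74 of the 56748 rows matched. They were divided by textbook role into 45 genes of skeletal or cardiac muscle, 9 of smooth muscle and 20 of the general cytoskeleton. The rule that chose them uses gene names and no measured value, but members were chosen with earlier results of these data known.

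The cells were labelled as primary rat dorsal root ganglion neurons, the sensory nerve cells beside the spinal cord. In the group EVMu (3 libraries) they were treated with extracellular vesicles, the small membrane-bound particles that cells release, from muscle with its nerve supply. In the group EVadMu (3 libraries) the vesicles came from acutely denervated muscle, and log2 fold changes are EVadMu over EVMu. The labels give no dose, exposure time, strain or age, no group without vesicles, and no separate culture or animal for each library. The p-values therefore measure the spread between libraries, which may be technical, and a fall in EVadMu cannot be told apart from a rise in EVMu.

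The libraries held 14853115 to 17019877 counts, and 80% of the 16993 tested genes passed the 0.05 threshold on the adjusted p (39.2% upward and 40.8% downward in EVadMu). The 74 members took 0.911 to 0.915% of the counts in EVMu and 0.52 to 0.522% in EVadMu. The labelled cell type was checked against 12 neuron markers, which were all tested. Of these, 10 were lower in EVadMu, 1 was higher and 1 did not pass, and their summed level was 5180 to 5390 CPM (counts scaled to a common library total) in EVMu and 3040 to 3150 CPM in EVadMu. Markers of fibroblasts (7050 to 7100 CPM in sum) and of Schwann and satellite glia (3970 to 4160 CPM) were also present in EVMu, at 616 to 638 and 914 to 932 CPM in EVadMu. Of 6 tested macrophage and leukocyte markers 5 were lower and 1, Cd68, was higher. Among the lower ones Ptprc, Adgre1, Cx3cr1 and Mrc1 passed the expression filter through EVMu alone, a selection that favours a lower level in EVadMu. The sum of the macrophage and leukocyte markers was 30.5 to 35.9 CPM in EVMu and 133 to 138 CPM in EVadMu. This rise was carried by Cd68 alone (12.9 ± 1.90 to 131.4 ± 3.24 CPM), while the macrophage marker Adgre1 went from 5.81 to 0.126 CPM. In such bulk RNA, fewer cells of a type and less RNA per cell cannot be told apart.

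Actin polymerises into filaments along which myosin heavy chains, carried with their light chains, pull. Skeletal and cardiac muscle order these filaments into sarcomeres, where troponin and tropomyosin set calcium sensitivity and titin and nebulin act as molecular rulers. Smooth muscle uses its own actins and myosin, switched on by a light chain kinase, and activated fibroblasts and pericytes turn on part of that programme. Every cell carries beta and gamma actin and nonmuscle myosin, which in neurons serve the growth cone, the axon's membrane skeleton and transport. Many of these genes are targets of serum response factor (SRF), which binds a 10-base DNA element called the CArG box.

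Promoter sequences are shown because members whose promoters hold this element moved in opposite directions. The windows run from 250 bases before to 50 bases after the gene start in RefSeq's rat assembly GRCr8, which matches the labelled species but not the mouse build named for the counts. Of the 74 members, 62 had a window. A strict CArG box (CC, 6 bases of A or T, GG; the element reads as the same class on both strands) was found in 8 of them (12.9%), against 1.77% of the 27457 genes with a window. None of the 5 smooth muscle members with a window held a strict box. A looser form with 1 C or G among the 6 central bases was found in 11 members (17.7%) and in 8.68% of all genes. Besides Acta2, the tested members with the looser form were Acta1, Ckm and Ttn, which were higher in EVadMu, Neb, which was lower, and Tpm3, which did not pass. A match is a string of letters and was not tested for binding. The stretches below are written 5′ to 3′ on the strand of the gene, with the box and 35 bases on each side, and capitals mark the box (strict in the first 5, looser in Acta2, whose stretch holds 2 boxes).
Acta1, chr19:68784244-68784323, minus strand: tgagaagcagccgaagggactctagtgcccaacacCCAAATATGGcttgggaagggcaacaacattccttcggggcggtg
Myh4, chr10:52421995-52422074, plus strand: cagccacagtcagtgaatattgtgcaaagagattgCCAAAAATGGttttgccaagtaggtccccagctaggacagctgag
Actg1, chr10:106120997-106121076, minus strand: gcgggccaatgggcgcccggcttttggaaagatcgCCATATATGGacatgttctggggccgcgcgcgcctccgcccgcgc
Cnn2, chr7:10370339-10370418, minus strand: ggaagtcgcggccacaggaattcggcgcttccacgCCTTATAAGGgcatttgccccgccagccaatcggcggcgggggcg
Musk, chr5:77853503-77853582, plus strand: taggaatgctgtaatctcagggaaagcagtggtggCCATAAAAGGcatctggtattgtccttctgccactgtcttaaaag
Acta2, chr1:241172543-241172672, minus strand: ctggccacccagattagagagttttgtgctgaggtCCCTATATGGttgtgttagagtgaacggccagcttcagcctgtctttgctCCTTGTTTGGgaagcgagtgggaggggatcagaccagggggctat
Among these genes Acta1 and Myh4 were higher in EVadMu, while Actg1, Cnn2, Musk and Acta2 were lower, with the values given under each class. Of the genes with either form, Myh4 and Ckm passed the expression filter through EVadMu alone, and Musk and Acta2 through EVMu alone. The filter favoured the direction of each of them, whereas Acta1, Actg1 and Cnn2 passed in both groups. The other 3 members with a strict box, Actc1, Myh15 and Myl3, had too few counts to be tested. The smooth muscle genes Myh11, Myl9, Tagln and Lmod1 and the actin gene Actb are among the 12 members with no window.

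Smooth muscle genes had the lowest median of the 3 classes. All 7 tested members of 9 were lower in EVadMu, where 40.8% of all tested genes were lower, and each fell by more than 2-fold, with a median log2 fold change of -3.64 against -0.02 for all tested genes. Of these 7, however, 5 passed the expression filter through EVMu alone, a selection that favours a lower level in EVadMu, which leaves Smtn and Myh11 as the members measured above the filter in both groups. The summed level of the 9 genes was 169 to 178 CPM in EVMu and 19.2 to 22.6 CPM in EVadMu, a log2 difference of -3.10 (two-sided exact permutation p = 0.1, the smallest that 3 against 3 allows).

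Acta2, the smooth muscle alpha actin that marks myofibroblasts and mural cells, stood at 62.0, 63.8 and 63.6 CPM in the EVMu libraries and at 0.558, 0.692 and 0.569 CPM in the EVadMu libraries. The lowest EVMu library was far above the highest EVadMu library, and the log2 fold change was -6.69 ± 0.13 (SE; edgeR adjusted p = 2.02e-31). Actg2, the enteric smooth muscle actin, went from 5.35, 4.80 and 3.51 CPM to 0.372, 0.314 and 0.379 CPM (-3.65 ± 0.34). The muscle actins are nearly identical in sequence, so that their reads may be shared and their single levels are uncertain.

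The myosin of smooth muscle moved the same way. Myh11, its heavy chain, was at 11.7, 12.3 and 10.8 CPM in EVMu and 1.43, 1.26 and 1.01 CPM in EVadMu, a log2 fold change of -3.22 ± 0.19. Myl9, its regulatory light chain, fell from 21.0 ± 0.46 to 0.836 ± 0.25 CPM (SD, n = 3), and Mylk, the kinase that phosphorylates that chain, from 14.3 ± 1.28 to 0.565 ± 0.13 CPM. Myl9 and Mylk passed the filter through EVMu alone, and Myh11 in both groups.

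Among the actin-binding members, Smtn, which encodes smoothelin, had the smallest fall of the 7. It was at 51.3, 55.9 and 57.8 CPM in EVMu and 17.9, 15.1 and 14.9 CPM in EVadMu (log2 fold change -1.79 ± 0.08). Smtn made up 31.5% of the class sum in EVMu and 78.1% in EVadMu, while Acta2 made up 36.2% and 2.97%. Lmod1, a nucleator of actin filaments in smooth muscle, fell by 3.58 on the log2 scale, from 54, 50 and 45 counts to 1, 3 and 8 counts. Without EVadMu replicate 3 the fall of Lmod1 was larger, with a log2 fold change of -4.53.

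The calponin gene Cnn1 and the transgelin gene Tagln, both classical smooth muscle markers, did not pass the expression filter. Cnn1 had 8, 17 and 26 counts in EVMu and 1, 3 and 7 in EVadMu, and in the fit without a filter it was lower (log2 fold change -2.18, adjusted p = 4.17e-04). Tagln had 9, 5 and 13 counts against 12, 5 and 2. The Tagln groups overlapped, and its level was close to the detection limit in the same EVMu libraries that held 963 to 1123 counts of Acta2 each. If rat reads were counted on the mouse build, they would be lost to a different extent for each gene, and this was not tested.

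Markers of pericytes and vascular smooth muscle fell with these genes. Of 10 such markers none of which is a member, 9 were tested and all 9 were lower, where 40.8% of all tested genes were lower. The sum of these markers went from 955 to 970 CPM in EVMu to 119 to 123 CPM in EVadMu. Fibroblast markers were lower in 9 of 10, with Thy1, which neurons also express, as the higher one, and endothelial markers in 7 of 7. Kcnj8, Abcc9, Vtn and the fibroblast marker Lum passed the filter through EVMu alone, with 11, 31, 10 and 33 counts over the EVadMu libraries. That selection favours a lower level in EVadMu. No defining marker of these lists was at 0 in all libraries. The part of these cell types in the fall of the smooth muscle genes was not tested.

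**Figure D1:**
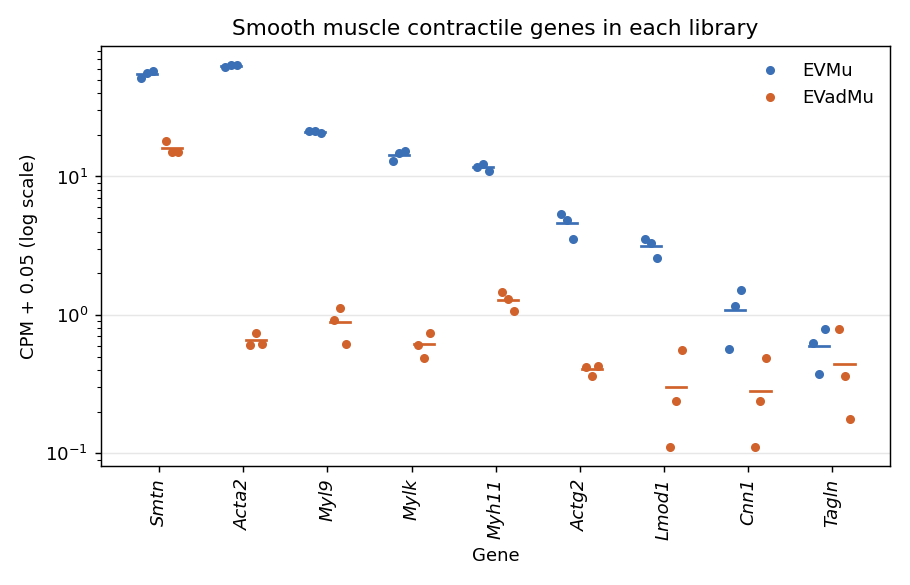
CPM of the 9 smooth muscle genes in each library (points; log axis, 0.05 added to show values near 0), with lines at the group means. EVMu lies above EVadMu without overlap for every gene except Tagln, whose libraries mix, and the gap is widest for Acta2 (63.2 against 0.606 CPM). Acta2, Actg2, Myl9, Mylk and Lmod1 passed the filter only through EVMu, where they are high, and Cnn1 and Tagln did not pass it. Of all tested genes, 80.7% had groups without overlap.

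Genes of skeletal and cardiac muscle did not move as a block. Of 45 members, 1 had no counts and 20 passed the filter. In EVadMu 10 of these 20 were higher, 6 were lower and 4 did not pass, and 80% of all tested genes were called. The filter set part of this, because 5 of the 10 higher members passed it through EVadMu alone and 2 of the 6 lower members through EVMu alone. Among the 11 that passed in both groups, 5 were higher, 4 were lower and 2 did not pass. The median log2 fold change of the 20 was 0.37. All levels were low, with none of the 45 above 17.3 CPM in any library. The summed level of the class was 64.8, 66.3 and 70.8 CPM in EVMu and 76.2, 78.4 and 67.4 CPM in EVadMu, and these overlapped (log2 difference 0.13, two-sided exact permutation p = 0.2). That sum hid opposite changes, because the cardiac myosin gene Myh6 alone made up 24.9% of it in EVMu and 0.197% in EVadMu, and Acta1 2.09% and 19.3%.

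The higher members included some thin filament genes of skeletal muscle. Acta1, the skeletal alpha actin, had 23, 24 and 21 counts in EVMu and 230, 247 and 206 counts in EVadMu. These are levels of 1.41 ± 0.19 and 14.3 ± 1.25 CPM, and the log2 fold change was 3.34 ± 0.18 (adjusted p = 2.41e-18). Acta1 therefore rose 10.1-fold while the smooth muscle actins Acta2 and Actg2 fell. Tnnt3, the fast troponin T that ties troponin to tropomyosin, went from 2, 2 and 5 counts to 48, 57 and 44 counts (4.02 ± 0.42). Tnni2, the fast inhibitory troponin, was not tested in the main comparison, with 0, 1 and 0 counts against 21, 28 and 10, which is 59.9-fold in EVadMu over EVMu (exact 95% limits from counting error 10.3 and 2410). The slow inhibitory troponin Tnni1 was 1.75-fold higher (22, 19 and 30 against 45, 45 and 32 counts), without overlap. That call was lost without EVMu replicate 2 (adjusted p = 0.0536) and in DESeq2 (0.0630). Tnnc1, the slow and cardiac calcium-binding troponin, had a log2 fold change of 0.20 and did not pass. Its fast counterpart Tnnc2 was not tested, with 1, 0 and 0 counts in EVMu and 0, 1 and 0 in EVadMu.

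Thick filament genes went both ways. Myh4, the fast IIb myosin heavy chain, had 3, 0 and 3 counts in EVMu and 21, 30 and 17 in EVadMu (log2 fold change 3.45 ± 0.58), and Myl1, the fast essential light chain, 1, 5 and 6 against 49, 36 and 34 (3.29 ± 0.44). Myh6, the cardiac alpha heavy chain, took the opposite course, with 258, 254 and 305 counts in EVMu and 4, 1 and 2 in EVadMu. Its log2 fold change of -6.77 ± 0.26 was the largest fall of any tested member. The neighbouring cardiac gene Myh7, whose sequence is close to that of Myh6, had 0 counts in EVMu and 0, 5 and 1 in EVadMu. Myl4, an atrial and embryonic light chain, was lower (2.33 ± 0.79 to 1.22 ± 0.35 CPM), but not past the threshold without EVMu replicate 3 (adjusted p = 0.133), without EVadMu replicate 1 (0.0666) or in DESeq2 (0.0624). The embryonic heavy chain Myh3 was higher at a log2 fold change of 0.92 with overlapping groups (adjusted p = 0.0346). Its adjusted p ranged from 0.0530 to 0.207 under the replicate block, with no filter, with no scaling factors, in DESeq2 and without EVMu replicate 2, EVMu replicate 3, EVadMu replicate 1 or EVadMu replicate 2. The perinatal heavy chain Myh8 did not pass (-0.66).

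Members of energy and oxygen supply included Ckm, Pygm and Mb. Ckm, the muscle creatine kinase, had 4, 1 and 1 counts in EVMu and 38, 35 and 33 in EVadMu, a 16.9-fold rise (log2 fold change 4.08 ± 0.50) that reached 5.02 on the log2 scale without EVMu replicate 1. Pygm, the muscle form of glycogen phosphorylase, rose from 4.70, 3.18 and 4.93 CPM to 11.5, 11.7 and 11.6 CPM (1.43 ± 0.16). The EVadMu libraries of Pygm differed from each other by less than those of EVMu. Mb, which encodes the oxygen store myoglobin, was too low to be tested, with 0, 0 and 2 counts against 14, 13 and 8 (17.8-fold, exact 95% limits from counting error 4.57 and 153).

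Structural genes of the sarcomere went both ways. Ttn, the giant elastic protein titin, was higher by 0.42 on the log2 scale (adjusted p = 0.0269), a call lost with upper-quartile or no scaling factors, with no filter, in DESeq2 and without EVMu replicate 1, EVMu replicate 3 or EVadMu replicate 1 (adjusted p = 0.0516 to 0.169). Neb, the thin filament ruler nebulin, fell from 7.47, 8.82 and 7.71 CPM to 3.04, 5.10 and 2.34 CPM (-1.19 ± 0.20). Des, the muscle intermediate filament desmin that smooth muscle and pericytes also express, was at 5.48, 5.58 and 5.84 CPM and then 3.91, 3.27 and 1.83 CPM (-0.90 ± 0.22). The groups of both genes did not overlap, although EVadMu replicates spread more than those of EVMu. The fast Z-disc actinin Actn3 was higher (1.17 ± 0.32), while its relative Actn2 (0.31) did not pass. The M-band gene Myom1 was lower at -0.46, a call lost in DESeq2 and without EVMu replicate 2, EVadMu replicate 1 or EVadMu replicate 2 (adjusted p = 0.109 to 0.157), and Myom2 (0.28) did not pass.

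Musk, the receptor kinase that organises the nerve-muscle synapse, fell from 64, 78 and 105 counts to 5, 0 and 5 counts, a log2 fold change of -4.55 ± 0.40. Within the class only Myh6 fell further. Musk, Myh6, Myom2 and Myh8 passed the filter through EVMu alone, and Tnnt3, Myl1, Ckm, Myh3 and Myh4 through EVadMu alone. The filter favoured the direction of each except Myom2 (log2 fold change 0.28), and their counts are given as a description. In a fit without the filter, where 41.3% of the 35783 genes with any count were called, 7 of the 25 untested members passed. Tnni2, Mb, Myl3, Myoz1, Myh2 and Myh15 were higher there and Mylk4, a skeletal and cardiac light chain kinase, was lower. The ventricular and slow light chain gene Myl3 had 4, 1 and 1 counts against 12, 11 and 9, and Mylk4 8, 14 and 11 against 0, 3 and 1. The other 17 with counts did not pass, and their total counts over the 6 libraries were low: Actc1 (56), Tnnt2 (51), Mylk2 (50), Tnnt1 (34), Tnni3 (33), Myom3 (26), Myh1 (25), Lmod2 (22), Myoz2 (15), Myh13 (15), Mylk3 (13), Myl2 (9), Myl10 (8), Myoz3 (7), Myh7 (6), Lmod3 (4) and Tnnc2 (2). Myl7 had no counts.

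Markers of the skeletal muscle lineage were scarce in both groups. Of 10 such markers, 2 passed the filter, of which Cdh15 was lower and the receptor subunit Chrna1 did not pass. Their summed level was 9.06 to 11.1 CPM in EVMu and 3.4 to 5.38 CPM in EVadMu. The myogenic factors Myod1, Myog, Myf5 and Myf6 had 4, 8, 0 and 0 counts over the EVMu libraries and 4, 3, 5 and 3 over the EVadMu libraries. The part of muscle lineage cells in the higher sarcomere transcripts was not tested.

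**Figure D2:**
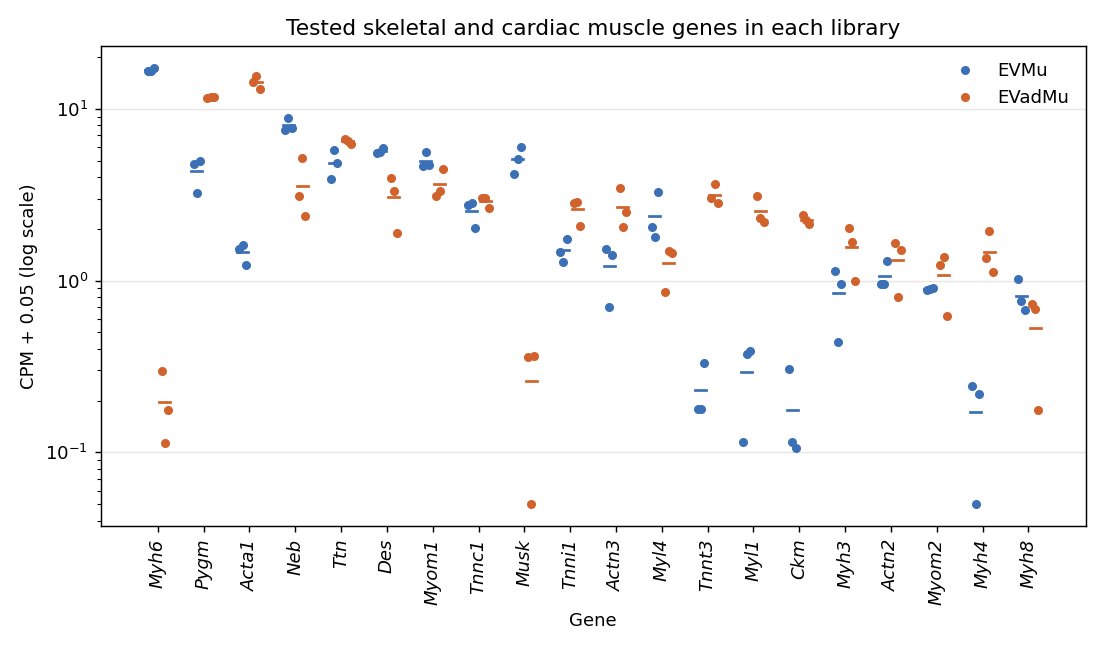
CPM of the 20 tested skeletal and cardiac muscle genes in each library (points; log axis, 0.05 added), with lines at the group means. Acta1, Tnnt3, Myl1, Ckm and Myh4 lie higher in EVadMu, while Myh6 and Musk lie higher in EVMu. All of these except Acta1 passed the filter only through the group where they are high, and 80.7% of all tested genes had groups without overlap.

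Cytoskeletal genes were mostly lower in EVadMu. All 20 members were tested, and each passed the filter in both groups. Of these, 15 were lower (40.8% of all tested genes), 1 was higher (39.2%) and 4 did not pass, with a median log2 fold change of -0.67, and 7 of them were lower by at least 2-fold (23.5% of all tested genes). The libraries of the groups did not overlap for 18 of 20, against 80.7% of all tested genes. The summed level was 8541 to 8575 CPM in EVMu and 5291 to 5394 CPM in EVadMu, a log2 difference of -0.68 (two-sided exact permutation p = 0.1, the smallest possible), and Actg1 and Actb made up 21.4% and 20.4% of it in EVMu.

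The nonmuscle actins both fell, to different extents. Actb, beta actin, was at 1745, 1740 and 1748 CPM in EVMu and 740, 735 and 775 CPM in EVadMu, a log2 fold change of -1.22 ± 0.03 (adjusted p = 7.19e-30). Actg1, gamma actin, was at 1840, 1865 and 1786 CPM and then 1268, 1273 and 1343 CPM (-0.50 ± 0.03). Actb is often taken as a reference gene of constant level, and here it was 2.33-fold lower. Both have many processed pseudogenes and close sequences, so that reads may be split between them. Actinins crosslink these filaments, and Actn4 (-0.35 ± 0.03) and Actn1 (-0.53 ± 0.05) fell by less than Actb.

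Nonmuscle myosin II heavy chains power contraction of the cell cortex and of growth cones. Myh9 (chain IIA) fell from 1022, 1012 and 1056 CPM to 672, 669 and 645 CPM, a log2 fold change of -0.64 ± 0.03. Myh10 (chain IIB, prominent in neurons) fell by more, from 234, 228 and 235 CPM to 93.1, 96.6 and 90.4 CPM (-1.32 ± 0.04), and Myh14 (chain IIC) fell by 1.73 on the log2 scale. The light chains were mixed. Myl12a, a regulatory light chain of nonmuscle myosin, was the 1 member that rose, from 75.1, 69.6 and 74.3 CPM to 101, 103 and 94.4 CPM (0.44 ± 0.05). Its neighbour and near-identical copy Myl12b was lower (4.89 ± 0.64 to 3.03 ± 0.76 CPM), and reads may be split between them. The essential light chain Myl6, at 289 ± 15.2 and 288 ± 7.07 CPM, and its relative Myl6b (-0.29, adjusted p = 0.0816) did not pass. Myl6 was past the threshold with no scaling factors (log2 fold change -0.12, adjusted p = 0.00280). Myl6b was past the threshold with upper-quartile or no scaling factors (adjusted p = 0.041 and 0.017) and without EVadMu replicate 3 (0.0389).

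Tropomyosins lie along actin filaments and give them their identity, and the Tpm1, Tpm2 and Tpm3 genes also yield muscle isoforms by alternative splicing, which gene counts do not separate. Tpm2 fell most, from 16.6, 15.04 and 14.3 CPM to 3.41, 3.77 and 3.29 CPM (-2.13 ± 0.15). Tpm4 and Tpm1 fell by 0.93 and 0.83 on the log2 scale. Tpm3 was at 323, 327 and 329 CPM in EVMu and 343, 353 and 329 CPM in EVadMu (0.07 ± 0.03, adjusted p = 0.0601). Tpm3 was past the threshold without EVadMu replicate 1 (adjusted p = 0.0486) and without EVadMu replicate 3 (0.00387), and also with RLE scaling, the stricter filter, DESeq2 and limma-voom (0.0157 to 0.0490), and its sign turned with no scaling factors (-0.05).

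Calponins and transgelins stabilise actin bundles. Cnn2 and Cnn3, the calponins of nonmuscle cells, were lower, Cnn2 at 85.3, 93.5 and 95.2 CPM against 21.0, 23.9 and 24.5 CPM (-1.98 ± 0.06) and Cnn3 at 499 ± 16.5 against 183 ± 6.74 CPM (-1.45 ± 0.04). Tagln2, found in many nonmuscle cells, fell by 1.06 on the log2 scale. Tagln3, the transgelin of neurons, had 76.5, 73.2 and 74.5 CPM in EVMu and 83.8, 80.1 and 76.4 CPM in EVadMu, which overlapped (0.10 ± 0.05, adjusted p = 0.0649). Tagln3 was past the threshold without EVadMu replicate 3 (adjusted p = 0.0133) and with RLE scaling (0.0277), and its sign turned with no scaling factors (-0.01). Cald1, caldesmon, which blocks myosin on actin, fell by 0.21, the smallest fall that passed in this class. In the same libraries 10 of 12 neuron markers, 9 of 10 fibroblast markers and 9 of 10 markers of Schwann and satellite glia were lower, against 40.8% of all tested genes. The part of cell composition in these falls was not tested.

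**Figure D3:**
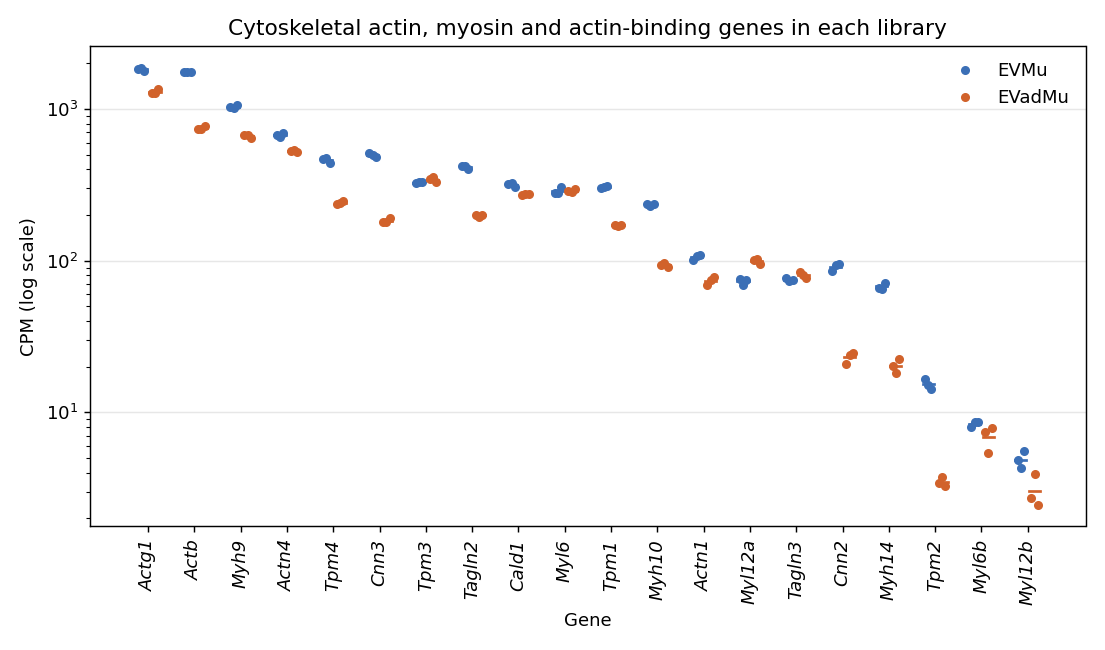
CPM of the 20 cytoskeletal genes in each library (points; log axis), with lines at the group means. EVadMu lies below EVMu for most genes, while Tpm3, Myl6 and Tagln3 lie close together and Myl12a lies higher in EVadMu (99.1 against 73.0 CPM).

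Set side by side, the classes covered different ranges. The tested log2 fold changes ran from -6.69 to -1.79 for smooth muscle, from -6.77 to 4.08 for skeletal and cardiac muscle, and from -2.13 to 0.44 for the cytoskeleton. The ends at -6.69 (Acta2), -6.77 (Myh6) and 4.08 (Ckm) belong to members that passed the filter only through the group where they were high. Among members that passed in both groups, smooth muscle held -3.22 and -1.79, and skeletal and cardiac muscle ran from -1.19 to 3.34. Over all 47 tested members, 28 were lower, 11 higher and 8 not past the threshold. Of the 47, 14 passed the filter through 1 group alone, so the share called is not set against the 80% of all tested genes.

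**Figure D4:**
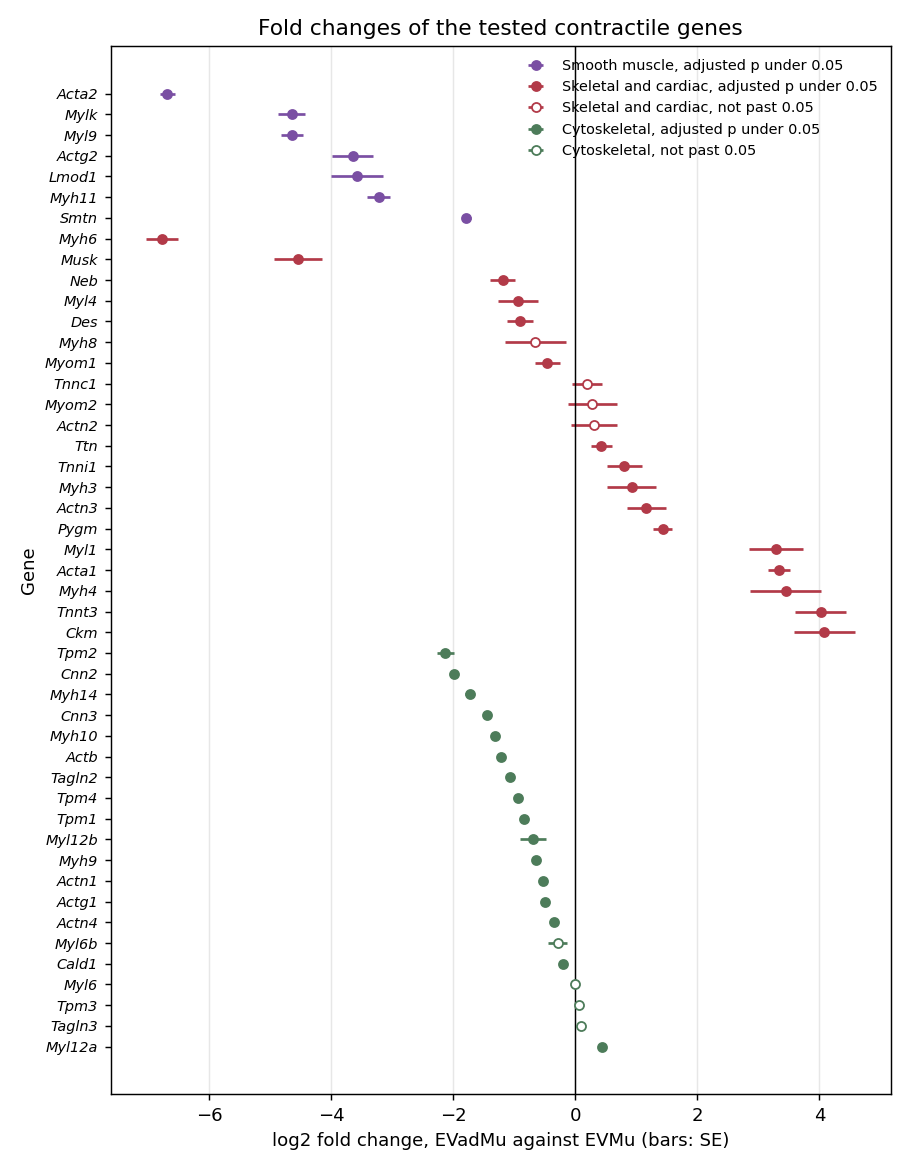
Log2 fold changes of EVadMu against EVMu (points) with their SE (bars) for the 47 tested members, by class and ordered within each class. Filled points passed an adjusted p of 0.05; smooth muscle lies wholly to the left, the cytoskeleton mostly so, and skeletal and cardiac genes lie on both sides.

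The ratio of the counts of related genes within a library depends on their lengths, but its difference between the groups depends on neither length nor scaling, and this difference was compared for 10 pairs. For 9 of the 10 the libraries of the groups did not overlap, each with a two-sided exact permutation p of 0.1, the smallest that 3 against 3 allows (0.111 after Benjamini-Hochberg adjustment over the pairs), so that none could reach 0.05. Single genes had groups without overlap in 80.7% of all tested genes, and the share for other pairs was not computed. The log2 ratio of Actb to Actg1 counts was -0.08, -0.10 and -0.03 in EVMu and -0.78, -0.79 and -0.79 in EVadMu, a 1.65-fold shift from beta to gamma actin counts. The ratio of Acta2 to Actb shifted 42.8-fold (log2 difference -5.42), so that the fall of Acta2 exceeded that of the ubiquitous actin. Acta2 passed the filter through EVMu alone and had 9, 11 and 9 counts in EVadMu. The size of its shift therefore depends on the 0.5 added to each count, and it was smaller with 5 counts added.

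Among the myosins, Myh9 counts rose 1.6-fold relative to Myh10 (log2 ratio 2.15 ± 0.02 and 2.83 ± 0.03, SD, n = 3). Among tropomyosins, the log2 ratio of Tpm3 to Tpm4 counts was -0.53, -0.53 and -0.42 in EVMu and 0.54, 0.57 and 0.41 in EVadMu. This is a 2-fold shift toward Tpm3, and says nothing of which gene has more transcripts. Tpm1 rose 2.44-fold relative to Tpm2. The neuronal Tagln3 rose 2.24-fold relative to Tagln2, and Cnn2 fell 1.44-fold relative to Cnn3. Actn1 against Actn4 gave the smallest shift among the 9 (1.13-fold), and its groups barely separated, with EVMu replicate 1 at -2.740 and EVadMu replicate 3 at -2.747. Tagln against Tagln2 overlapped (two-sided exact permutation p = 0.7) and rests on few Tagln counts.

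**Figure D5:**
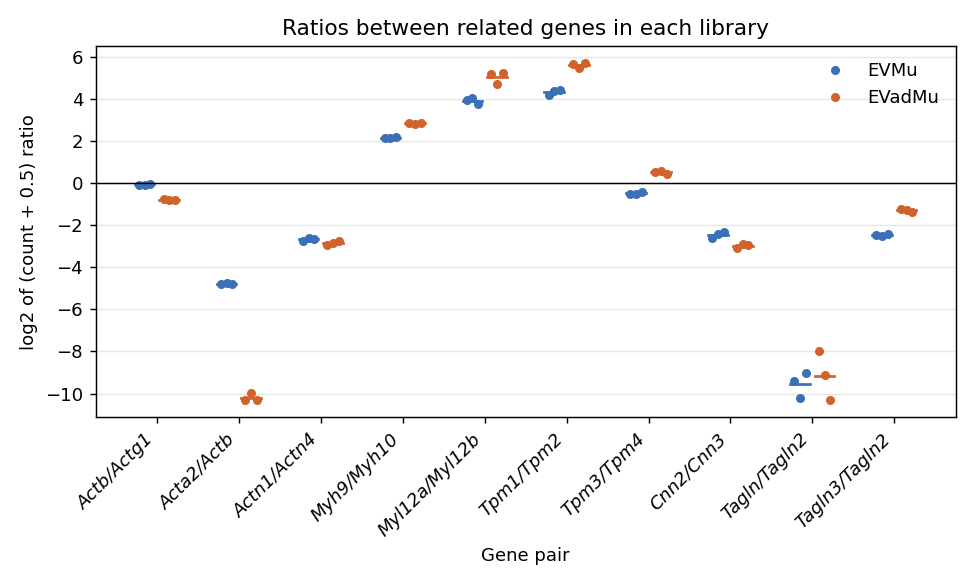
Log2 ratio of counts, with 0.5 added to each, for 10 pairs of related genes in each library (points), with lines at the group means. The groups separate for 9 pairs, barely so for Actn1/Actn4, and overlap for Tagln/Tagln2.

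Genes that control the contractile programme were examined in lists that the members do not enter. The counts of each list stand beside all tested genes, of which 40.8% were lower and 39.2% higher in EVadMu. Among the called genes of the lists below, Vil1, Mylpf, Tcap, Rapsn and Colq passed the filter through EVadMu alone, and Was and Myo1f through EVMu alone. The filter favoured the direction of each of these. In a list of SRF, its cofactors and known targets, 6 of 12 tested genes were lower, 3 higher and 3 not past the threshold, with a median log2 fold change of -0.16. Srf itself was slightly higher, from 40.5 ± 2.1 to 49.96 ± 2.38 CPM (0.30 ± 0.06). Its actin-sensing cofactor genes Mrtfb and Mrtfa were lower, by 1.17 and 1.13 on the log2 scale, where Mrtfa was named after its value was seen. Myocd, the smooth and cardiac muscle cofactor, was near the detection limit and did not pass (37 and 44 counts over the libraries of each group). The partner factor gene Elk3 fell by 2.14 on the log2 scale. Targets differed. The adhesion gene Vcl fell from 265 ± 4.65 to 48.5 ± 2.23 CPM, whereas Ccn1 rose by 0.82 and Ccn2 did not pass (0.07).

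Of 42 genes of actin assembly and turnover, 27 were lower, 12 higher and 3 not past the threshold (median -0.29). The severing protein gene Gsn fell from 436 ± 2.03 to 124 ± 6.04 CPM, Tmsb4x, which sequesters actin monomers, from 660 ± 5.93 to 257 ± 15.1 CPM, and the formin gene Diaph3 from 48.1 ± 2.65 to 2.26 ± 0.14 CPM (log2 fold change -4.41). The Arp2/3 complex, which branches filaments, was uneven, with Arpc1b down by 1.55 and Arpc2, Arpc3 and Arpc4 up by 0.49, 0.67 and 0.61. Of 23 tested genes of bundling and crosslinking, 16 were lower and 5 higher (median -0.50). The podocyte and dendrite protein gene Synpo (-3.55), the spectrin genes Sptbn1 (-1.55) and Sptan1 (-1.37) and the filopodial bundler Fscn1 (-2.53) had the smallest p. Vil1 (2.56, from 20 to 118 counts over the libraries of each group), Espn (1.14) and Coro1b (0.36) went up.

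Of 21 tested unconventional myosins, which carry cargo or link membranes to actin, 11 were lower and 5 higher (median -0.48). The shares over all tested genes were 40.8% and 39.2%. Myo18a (-2.01) and the filopodial motor Myo10 (-1.16) fell, Myo16 (1.79) and the stereocilia motor Myo15 (3.15) rose, and Myo9b did not pass (-0.05).

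Other sarcomere and calcium release genes again went both ways, with 7 of 17 tested higher and 5 lower of 30 listed (median 0.63). Atp2a1, the calcium pump of fast muscle, rose from 0.849 ± 0.30 to 5.9 ± 0.89 CPM (2.77 ± 0.27). The fast regulatory light chain gene Mylpf (1.95 ± 0.35) and the calcium release channel gene Ryr1 (1.02 ± 0.33) were also higher. Mylpf had 34 counts over the EVMu libraries and 130 over the EVadMu libraries, and Ryr1 51 and 102. The intermediate filament gene Synm (-1.07), the actin-binding gene Synpo2 (-3.28) and Nebl (-1.22) fell. Among genes of the nerve-muscle synapse, 5 of 10 tested were higher and 3 lower (39.2% and 40.8% of all tested genes). Agrn, the nerve-derived ligand of the Musk complex, fell from 491 ± 9.42 to 81.2 ± 5.18 CPM and its receptor Lrp4 from 54.1 ± 2.77 to 3.63 ± 1.00 CPM, as did Musk, whereas Dok7, the adaptor that activates Musk, rose from 4.87 ± 1.33 to 37.4 ± 1.17 CPM. Erbb2 fell by 1.99 on the log2 scale, and Ache and Chrna1 did not pass.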

How the data were processed

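RNA of 6 libraries was poly(A)-selected, fragmented and primed with random hexamers, per the labels' protocols, with no step named that marks strand. The authors deposited raw counts of reads per gene with mouse Ensembl identifiers. CASAVA 1.8, HISAT2, SAMtools, featureCounts and the mouse build mm39 are named in the submitters' processing notes, while the labels name rat. No source used here names the annotation release, the strand setting or the handling of reads with several hits. Mouse gene lengths were not used, so counts and shares of class sums set side by side between genes are not corrected for length.

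The deposited counts went into edgeR 4.0.16 under R 4.3.3: expression filter (minimum count 10, minimum total 15; 16993 genes passed), TMM scaling, quasi-likelihood F-test and Benjamini-Hochberg adjustment over all tested genes. The SE is the log2 fold change divided by the square root of F. The procedure was tested on simulated data. Levels are CPM on TMM-scaled library sizes, with the SD over 3 libraries. Counting intervals (95%, exact) cover counting error only. Pairs of libraries within a group differed by 2.1 to 3.13 times counting noise, so none was merged. Alternatives were other scaling (RLE, upper-quartile, none), omitting the filter, a tighter one (20 counts in 3 libraries and an average CPM of 1), DESeq2 1.42.0, limma-voom (limma 3.58.1), the replicate number as a block and leaving out each library.

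Members and lists were chosen with earlier results of these data known. Values are given for members with a mean of at least 20 CPM, the largest called changes of each class, called members that went against their class and, by name or count, those that did not pass. From each list come up to 4 called genes with the smallest p and up to 3 others. Some list results are not reported here. Rat promoter windows (GRCr8) were taken from RefSeq and matched by symbol.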

Additional observations from a re-analysis of the deposited data

How the results depend on the processing

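The count of called members was 38 to 48 under all alternatives, against 39, and the members lost were Myh3, Ttn, Myom1, Tnni1, Myl4 while the stricter filter left Myh3 and Myh4 untested; the cause was not tested. No called member changed sign. Without scaling factors the median over all genes was -0.133 on the log2 scale, so changes under about that size depend on scaling. The number of cytoskeletal genes called higher, 1, was 3 with RLE scaling, 2 with the stricter filter, 2 in DESeq2, 2 in limma-voom and 1 to 3 with a library left out. Uncalled genes changed sign with no scaling factors (Tagln3 -0.0122, Tpm3 -0.0456), and Myl6 with RLE scaling (0.0130), in DESeq2 (0.0041) and with a library left out (-0.0416 to 0.0309).

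The log2 difference of the class sums with no scaling factors was 0.0212 for skeletal and cardiac, -3.21 for smooth muscle and -0.80 for cytoskeletal genes. For the last it was -0.66 with RLE scaling and -0.69 to -0.66 with a library left out. With Tpm1, Tpm2 and Cald1 counted as smooth muscle it was -0.79 for smooth muscle, which these abundant genes then dominate, and -0.70 for the cytoskeleton. Adding 5 counts moved the Acta2 to Actb difference to -4.89. Same-numbered libraries did not deviate together (correlations -0.0096 to -0.0038). The labels do not say whether they shared a culture or animal, and these correlations cannot tell. With the replicate block 38 members were called, without Myh3, and 13410 genes in all. Members with few counts, most of the 25 untested skeletal and cardiac genes, are limited by depth.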
